A study of Mus musculus with 18 samples.

Results

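The heat shock chaperones described here are 10 genes: Hspa1a, Hspa1b, Hspa8, Hsp90aa1, Hsp90ab1, Dnajb1, Hsph1, Hspb1, Hspd1 and Hspe1. They were chosen by symbol as classic members of the heat shock response and its constitutive partners, and each had a row in both deposited count tables, which hold 38924 genes (6 males) and 23337 genes (12 females). The RNA came from livers of 18 mice, each with its own library. There were 6 groups of 3 mice, all 8 weeks old and on a high-fat diet (45% of calories). LDP males (mice 8, 10 and 11) and LDP females (39, 52 and 54) were C57BL6J mice given low-dose penicillin (LDP) since birth. Control males (5, 6 and 7) and control females (29, 30 and 32) were C57BL6J mice that had no penicillin. These 4 groups were weaned in week 4 and began the high-fat diet in week 6. LDP recipients (2, 5 and 8) and control recipients (1, 3 and 7) were Swiss Webster females raised germ-free. At 3 weeks of age they were given gut microbiota of LDP or control female donors, and they had no penicillin themselves. The design asks whether early penicillin, or a gut community shaped by it, alters the liver. Replicates are separately numbered mice. The labels do not state cages, litters or how many donors were used, so p-values treat every mouse as independent.

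Chaperones bind unfolded or partly folded proteins, keep them from clumping and help them fold. Under heat, oxidative or other protein stress the transcription factor HSF1 forms trimers, binds repeated GAA blocks in promoters (heat shock elements) and switches on inducible members within minutes. Hspa1a and Hspa1b encode the nearly identical stress-inducible HSP70 proteins, and Hspa8 encodes HSC70, the constitutive form. Dnajb1 is an HSP40 that delivers clients to HSP70, and Hsph1 (HSP110) resets HSP70 by exchanging its nucleotide. Hsp90aa1 is the more inducible and Hsp90ab1 the more constitutive cytosolic HSP90, which matures kinases and steroid receptors. Hspb1 (HSP25 in mice) is a small chaperone that holds unfolded protein without using ATP. Hspd1 (HSP60) and Hspe1 (HSP10) form the folding chamber of the mitochondrial matrix. The liver is rich in chaperones because it makes and secretes much protein, and inducible members also follow feeding, body temperature and handling in mice.

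All positions are from GENCODE M21 on GRCm38. Hspa1a (34969190 to 34972156) and Hspa1b (34956436 to 34959238) lie close together on the minus strand of chromosome 17. Hsp90ab1 is on the same chromosome at 45567775 to 45573271. Hspd1 (chromosome 1, 55077835 to 55088243, minus strand) and Hspe1 (55088132 to 55091307, plus strand) are transcribed away from each other, and their annotated ends overlap. Hsph1 (149614287 to 149636376) and Hspb1 (135887919 to 135889563) are on chromosome 5. Hspa8 is on chromosome 9 (40800984 to 40810087), Hsp90aa1 on chromosome 12 (110690605 to 110702728) and Dnajb1 on chromosome 8 (83608193 to 83612653).

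Several of these genes have close copies, and the fate of multi-mapping reads in the authors' counting is not given in the sources used here. Of the 50-base words in Hspa1a transcripts, 66.3% also occur in transcripts of other genes, mostly Hspa1b, and of those in Hspa1b 62.3% do. The share was 50.1% for Hspb1 (mostly Hsp25-ps1), 47.5% for Hsp90aa1 (mostly Gm12346), 42.1% for Hspd1 (mostly Hspd1-ps3) and 39.4% for Hspa8 (mostly Gm15459). It was 22.8% for Hspe1, 3.44% for Hsp90ab1, 0.412% for Dnajb1 and 0% for Hsph1. The split of reads between Hspa1a and Hspa1b is therefore uncertain, and their sum is given beside them. Values of Hspb1, Hsp90aa1, Hspd1, Hspa8 and Hspe1 are uncertain to the extent that reads went to their copies.

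RefSeq promoter windows on GRCm38.p6, from 250 bases before to 50 bases after an annotated start, were held for 7 of the 10 members, with 10 windows in all. Heat shock elements were searched as the pairs GAANNTTC and TTCNNGAA, each its own complement, and, on both strands, as a triple in which a pair of each form overlap (the first pair, then NN and a further GAA). Of 32851 mouse promoter windows, 7.86% hold the first pair, 8.52% the second, 15.1% either pair and 0.603% the triple. A pair was present in 6 of the 7 members and a triple in 3 of them, Hsph1, Hspd1 and Hspe1. The percentages are per window, whereas these counts are per gene, and some members have a second window. Hspd1 and Hspe1 share bases, and Hspa1a and Hspa1b are nearly the same there, so the members are not independent. Neither Dnajb1 window holds these letters. The stretches below are parts of these windows and show the matches within them in capitals, with each sequence 5′ to 3′ on its gene's strand. The Hsph1 triple lies outside its printed part, and no Hspd1 stretch is printed.
Hspa1a, chr17:34972217-34972286, minus strand: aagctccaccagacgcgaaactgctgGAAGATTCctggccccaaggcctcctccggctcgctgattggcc
Hspa1b, chr17:34959299-34959368, minus strand: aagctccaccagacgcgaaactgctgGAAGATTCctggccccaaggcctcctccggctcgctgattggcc
Hspb1, chr5:135887789-135887848, plus strand: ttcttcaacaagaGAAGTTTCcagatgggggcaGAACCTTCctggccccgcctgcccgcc
Hspe1, chr1:55088043-55088092, plus strand: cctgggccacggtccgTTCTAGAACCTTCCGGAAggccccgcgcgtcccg
Hsph1, chr5:149636337-149636391, minus strand: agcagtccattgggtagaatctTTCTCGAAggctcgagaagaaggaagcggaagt

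The printed 70 bases were identical in Hspa1a and Hspa1b, whose pair lies at -104 to -97 from the start, and 247 of their 250 upstream bases were the same (98.8%, compared without gaps). In Hspb1 the first pair form occurs at -117 to -110 and again at -97 to -90. Hspe1 carries 2 overlapping triples, at -89 to -77 and -84 to -72, in a run of 4 alternating blocks. The same run appears in the second Hspd1 window at -144 to -127, since the head-to-head genes share these bases. In its first window Hsph1 has a pair at -33 to -26 and a triple just past the start, at 37 to 49. A match is a description of letters, and binding was not measured.

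**Figure D1:**
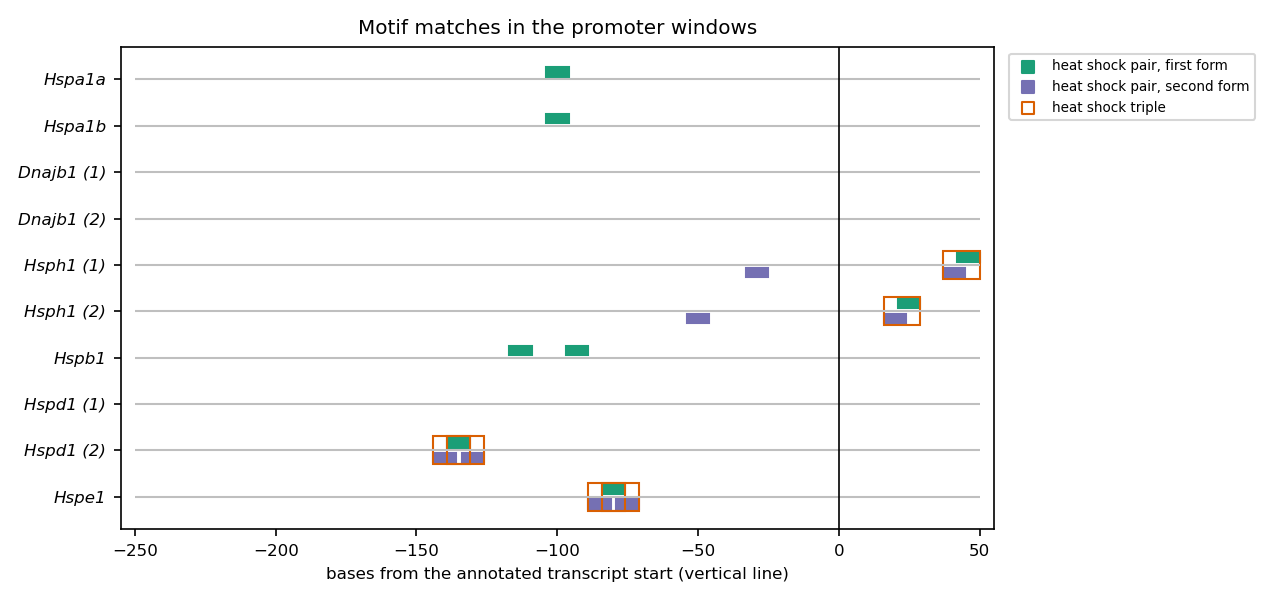
Positions of heat shock pairs (filled) and triples (outlined) in the RefSeq promoter windows of 7 members, with bases from the annotated start on the x axis and 1 row per window. Hspd1 and Hspe1 show the overlapping triples, Hspa1a and Hspa1b a pair at the same position, and the Dnajb1 windows none.

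The levels below are CPM, counts scaled to a common library total with TMM factors. Male libraries held 70336366 to 74418889 counts and female libraries 17937005 to 28646168, so low values are better measured in males, and levels are not compared across the 2 tables, which coincide with sex. Hspa1a had 24 to 91 counts per male library and 4 to 34 per C57BL6J female library, and Hspb1 had 10 to 46 per recipient library, so these carry large counting error. Xist and 4 Y-linked genes fitted the stated sex of every mouse. Hepatocyte markers dominated all libraries.

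Only the male table gives gene lengths, so members can be ranked by level only there, as CPM per kb. Hsp90ab1 was the most abundant, at 271 ± 32.7 CPM per kb in LDP males and 298 ± 11.7 in control males (SD, n = 3 each). Next were Hspa8 (191 ± 16.6 and 213 ± 8.01) and Hspd1 (138 ± 2.88 and 140 ± 3.37), in the same order of groups. Hspe1 followed, at 46.2 ± 2.09 in LDP males and 45.9 ± 2.11 in control males, ahead of Hsp90aa1 at 25.97 ± 4.80 and 32.7 ± 3.11. Dnajb1 (11.8 ± 1.97 and 14.4 ± 0.705) and Hsph1 (11.2 ± 2.61 and 14.9 ± 0.978) could not be separated beyond their spread. Nor could Hspa1b (4.08 ± 1.81 and 5.41 ± 1.30) and Hspb1 (3.23 ± 1.10 and 4.05 ± 1.198). Hspa1a was lowest, at 0.209 ± 0.0953 CPM per kb in LDP males and 0.359 ± 0.0633 in control males. The constitutive and mitochondrial members thus made up the upper ranks and the stress-inducible HSP70 genes the lower ones.

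In males, no chaperone passed the test for an LDP difference. Log2 changes of 9 of the 10 members were nevertheless below 0, as were 49.3% over all genes tested. The members of lowest p were Dnajb1, Hsp90aa1, Hsph1 and Hspa1a. The inducible Hspa1b had an unadjusted p of 0.311 in edgeR's test, above those of the constitutive Hspa8 (0.105) and Hsp90ab1 (0.213). Hsph1 had 59.96, 80.9 and 96.6 CPM in LDP males, against 103.4, 112.4 and 98.9 CPM in control males. All 3 LDP males lay below all 3 control males, though the highest LDP male (11) came close to the lowest control (7). Its log2 change was -0.41 ± 0.16 (SE; adjusted p = 0.920, edgeR), and it was the only member whose groups did not overlap, beside 4.85% of all genes tested that were lower without overlap.

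Hspa1a had 0.342, 0.604 and 0.905 CPM in LDP males, against 1.25, 1.06 and 0.874 CPM in control males. The groups overlapped by the narrow gap between LDP male 11 and control male 7, and the log2 change was -0.78 ± 0.34. Hspa1b had 6.96, 10.4 and 16.96 CPM in LDP males, against 16.5, 17.9 and 11.04 CPM in control males. Here the highest LDP male stood among the controls, and the log2 change was -0.41 ± 0.37. The sum of both HSP70 genes was 7.30, 10.97 and 17.9 CPM in LDP males and 17.8, 19.0 and 11.9 CPM in control males. Its log2 change was -0.43, so the smaller gene's larger difference did not carry over to the sum.

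Hsp90aa1 had 83.8, 101.0 and 121.5 CPM in LDP males, against 137.8, 133.1 and 114.7 CPM in control males, a log2 change of -0.33 ± 0.14. Dnajb1 had 23.6, 24.9 and 31.9 CPM in LDP males, against 31.6, 34.4 and 31.8 CPM in control males, a log2 change of -0.28 ± 0.11. For both, LDP males 8 and 10 were below every control male and LDP male 11 was within the control range. Hspa1a, Hsp90aa1, Dnajb1 and Hsph1 had an unadjusted p under 0.05 (0.0455, 0.0395, 0.0311 and 0.0423). The adjusted p was 0.920 for each in edgeR's quasi-likelihood test, and DESeq2 also called none of the members.

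The constitutive members differed less. Hspa8 averaged 792 ± 69.1 CPM in LDP males and 884 ± 33.3 in control males (SD, n = 3 each; log2 change -0.16), and Hsp90ab1 814 ± 98.0 and 893 ± 35.1 (-0.13). Hspd1 averaged 365 ± 7.61 CPM in LDP males and 369 ± 8.92 in control males, and Hspe1 68.1 ± 3.08 and 67.6 ± 3.12, so the mitochondrial chamber genes differed by less than their spread. Hspb1, at 3.33 ± 1.13 CPM in LDP males and 4.17 ± 1.24 in control males, had a log2 change of -0.32 ± 0.30.

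Of all 15438 genes tested in males, 1 was called at an adjusted p under 0.05 (0.00648%), against 0 of the 10 members. At an unadjusted p under 0.05, 2.06% of all genes were lower in LDP males, as were 4 of 10 members. Between males of the same group these 4 had correlations of 0.81 to 0.98 with each other. Most members varied together between mice, as described below, so counts of members in any comparison are not counts of independent results. The median log2 change was -0.30 over the members and 0.00 over all genes. LDP male 8 was the lowest LDP male for 9 members and LDP male 11 the highest for 9. Without mouse 8 the members' median log2 change was -0.13, and without mouse 11 it was -0.45. The 9 Kupffer cell markers were also all lower in LDP males, with a summed level of 387 to 421 CPM against 450 to 553 CPM in control males and none called. Their part in the chaperone values was not tested. In whole liver, fewer cells of a type and less RNA per cell cannot be told apart.

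**Figure D2:**
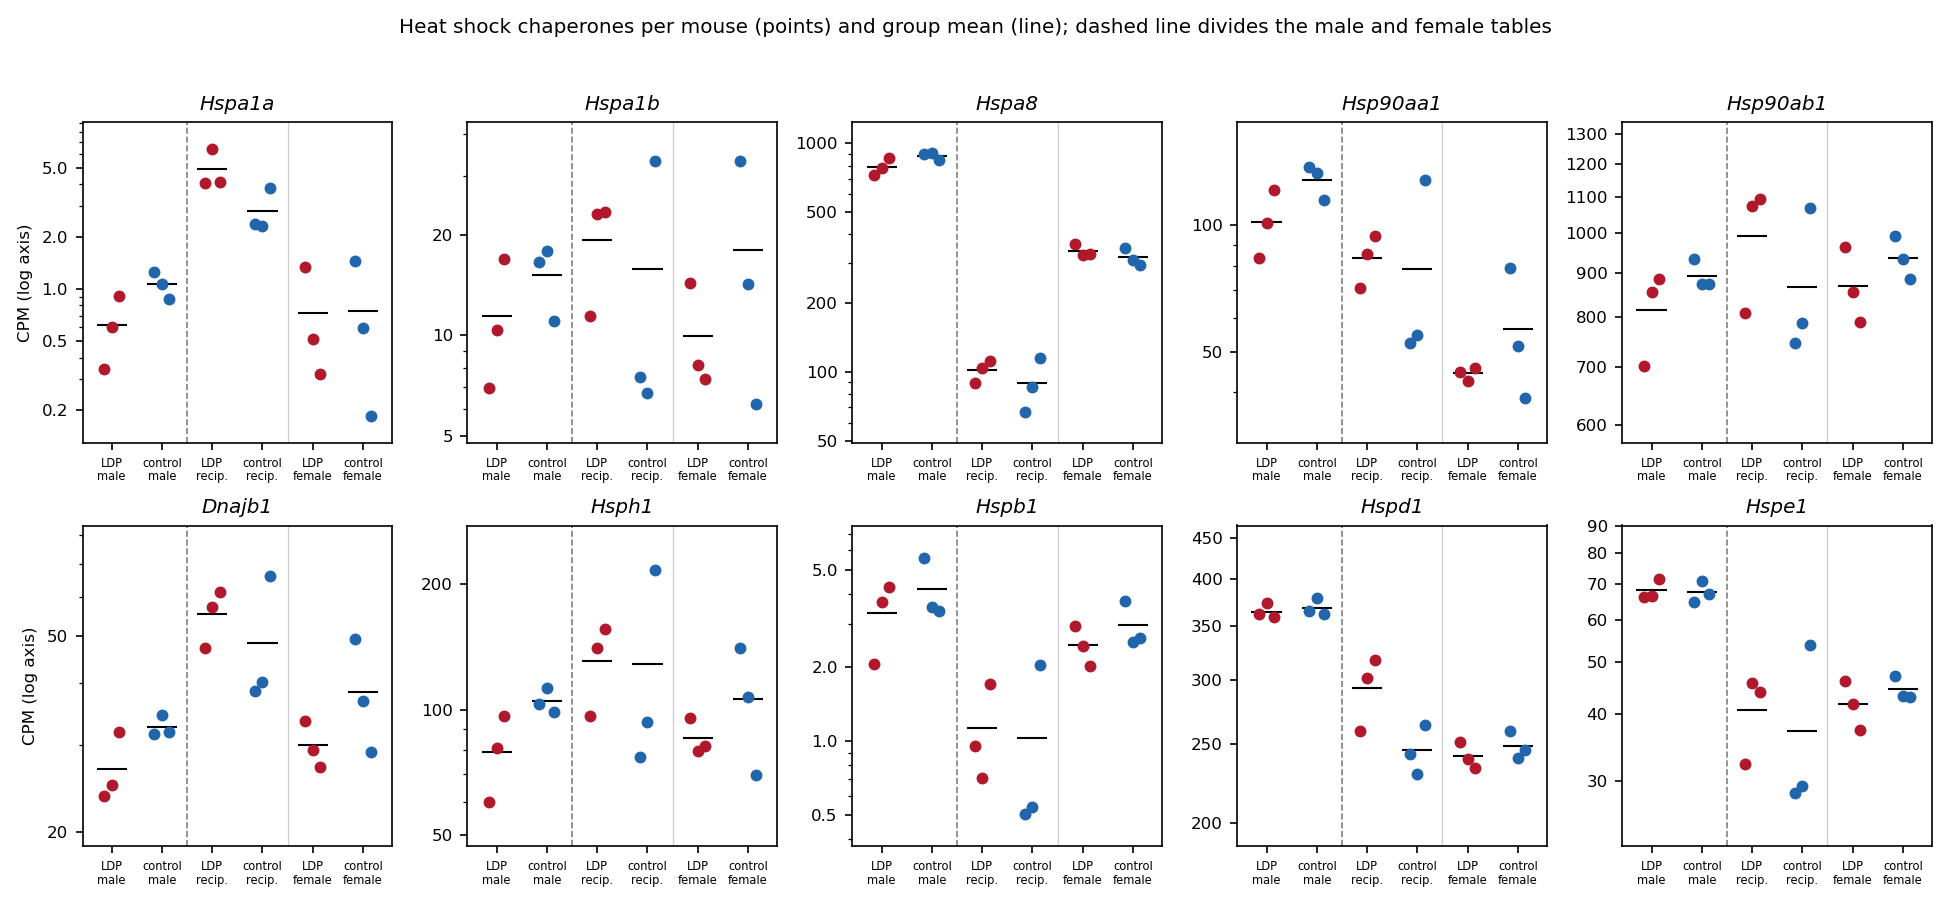
CPM of each member in every mouse (points, log axis, with its own range in each panel) with group means (lines), LDP in red and control in blue, males left of the dashed line, and recipients and then C57BL6J females right of it. Hspa8 sits near 95.5 CPM in recipients and 327 in C57BL6J females, and control female 29 and control recipient 7 stand above their group mates for the inducible members.

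In C57BL6J females, again no member passed the test, and the groups overlapped for all 10, beside 9.15% of all genes without overlap. Of 12914 genes tested, 0 were called (0%) by edgeR, 582 (4.51%) had an unadjusted p under 0.05, among them 0 members, and DESeq2 called 14 genes, none of them a member. Log2 changes of 8 members were below 0, beside 49.1% of all genes, and the median log2 change was -0.17 over the members and 0.00 over all genes.

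Hspa1b had 14.4, 8.13 and 7.40 CPM in LDP females, against 33.4, 14.3 and 6.22 CPM in control females. The spread was wider among controls, where mouse 29 was highest and mouse 32 lowest of all 6 females, and the log2 change of -0.83 ± 0.65 had an adjusted p of 0.999 in edgeR. Mice 29 and 32 were also highest and lowest for Hsph1, with 95.3, 79.3 and 81.5 CPM in LDP females and 140.9, 107.1 and 69.5 CPM in control females. Dnajb1 had 33.5, 29.3 and 27.1 CPM in LDP females, against 49.2, 36.9 and 29.1 CPM in control females. Its log2 change of -0.35 ± 0.18 had the lowest unadjusted p of the members, 0.0888 in edgeR's test (adjusted p = 0.999).

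Hsp90aa1 had 44.7, 42.6 and 45.8 CPM in LDP females, against 79.3, 51.7 and 38.8 CPM in control females. The LDP females lay close together inside the control range, so the lower mean rested on control females 29 and 30. Hspa1a had 1.33, 0.514 and 0.324 CPM in LDP females and 1.45, 0.596 and 0.184 CPM in control females, at the edge of what these libraries measure. Hspa8 averaged 338 ± 20.7 CPM in LDP females and 317 ± 29.3 in control females (SD, n = 3 each; log2 change 0.10). Hsp90ab1 (870 ± 87.3 and 936 ± 53.2), Hspd1 (242 ± 9.11 and 249 ± 9.78), Hspe1 (41.7 ± 4.33 and 44.5 ± 2.35) and Hspb1 (2.47 ± 0.455 and 2.97 ± 0.673) were each lower on average in LDP females by less than their spread. Without control female 29 the members' median log2 change was -0.03, so this mouse carried most of the lower level. Without LDP female 39 the median was -0.37. Mesothelial markers, at a low summed level of 8.42 to 22.3 CPM in LDP females and 5.02 to 6.06 in control females, were higher in LDP females for 4 of 4 tested, with none called. Their part in the chaperone values was not tested.

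Recipients of LDP microbiota showed the opposite sign. All 10 members had higher means in LDP recipients than in control recipients, and none passed the test. Of 12780 genes tested, 1 was called (0.00782%). The members' median log2 change was 0.18, beside -0.01 over all genes, of which 48.4% were higher.

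Hspa1a had 4.09, 6.405 and 4.14 CPM in LDP recipients, against 2.37, 2.29 and 3.81 CPM in control recipients. Every LDP recipient was above every control recipient, which held for no other member and for 6.74% of all genes tested in that direction. The log2 change was 0.77 ± 0.28 with an unadjusted p of 0.0212 and an adjusted p of 0.846 in edgeR. It was the only member with an unadjusted p under 0.05, beside 2.25% of all genes that were higher at that level. With Hspa1b added the log2 change was 0.36.

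Hspa1b had 11.46, 23.1 and 23.4 CPM in LDP recipients, against 7.52, 6.74 and 33.3 CPM in control recipients. Control recipient 7 was the highest of all 6 mice, and its group mates were the lowest. The same held for Hsph1, with 96.4, 140.7 and 156.0 CPM in LDP recipients and 76.9, 93.5 and 216.6 CPM in control recipients. Hsp90aa1 had 70.7, 85.2 and 94.4 CPM in LDP recipients, against 52.5, 54.9 and 128.5 CPM in control recipients. Dnajb1 had 47.1, 57.2 and 61.4 CPM in LDP recipients and 38.5, 40.3 and 66.2 CPM in control recipients, again with mouse 7 on top.

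Hspd1 had 259.8, 302.3 and 317.9 CPM in LDP recipients, against 243.0, 230.0 and 264.0 CPM in control recipients. Only LDP recipient 2 fell within the control range, and the log2 change was 0.25 ± 0.12. Its partner Hspe1 had 32.2, 45.7 and 44.0 CPM in LDP recipients, against 28.4, 29.3 and 53.8 CPM in control recipients. Hsp90ab1 averaged 993 ± 160.2 CPM in LDP recipients and 868 ± 174.9 in control recipients (SD, n = 3 each), Hspa8 102 ± 11.7 and 89.2 ± 24.4, and Hspb1 1.13 ± 0.525 and 1.03 ± 0.879. Without control recipient 7 the members' median log2 change was 0.56, and without control recipient 1 it was -0.03.

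The LDP difference itself was then compared between settings. Between females and recipients, all 10 members had a more negative LDP change in females, with a median difference of -0.37 on the log2 scale beside 0.00 over all genes, of which 50.3% were below 0. For the HSP70 system this was -1.12 ± 1.04 for Hspa1b, -0.74 ± 0.80 for Hspa1a, -0.55 ± 0.32 for Dnajb1, -0.33 ± 0.53 for Hsph1 and -0.10 ± 0.24 for Hspa8. It was -0.44 ± 0.48 for Hsp90aa1, -0.30 ± 0.23 for Hsp90ab1, -0.41 ± 0.65 for Hspb1 and -0.22 ± 0.31 for Hspe1. None of the 10 passed edgeR's interaction test, and neither did any of the 13295 genes (0%), of which 790 (5.94%) had an unadjusted p under 0.05. DESeq2 called 14 genes and no member. Hspd1 had the lowest unadjusted p in that edgeR test, 0.0681 (adjusted p = 0.788), with a difference of -0.30 ± 0.15. Between males and females the difference was below 0 for 5 members and above 0 for 5, with a median of -0.02. It ranged from -0.83 for Hspa1a, -0.26 for Hspa8 and -0.11 for Hsph1 through -0.09 (Hspb1), -0.04 (Hsp90ab1), 0.00 (Hsp90aa1), 0.01 (Hspd1), 0.06 (Dnajb1) and 0.09 (Hspe1) to 0.41 for Hspa1b. By edgeR 0 of 12747 genes were called (0%), and 345 (2.71%) had an unadjusted p under 0.05. DESeq2 called no member there either. The opposite signs in females and recipients were therefore not separated by the test.

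**Figure D3:**
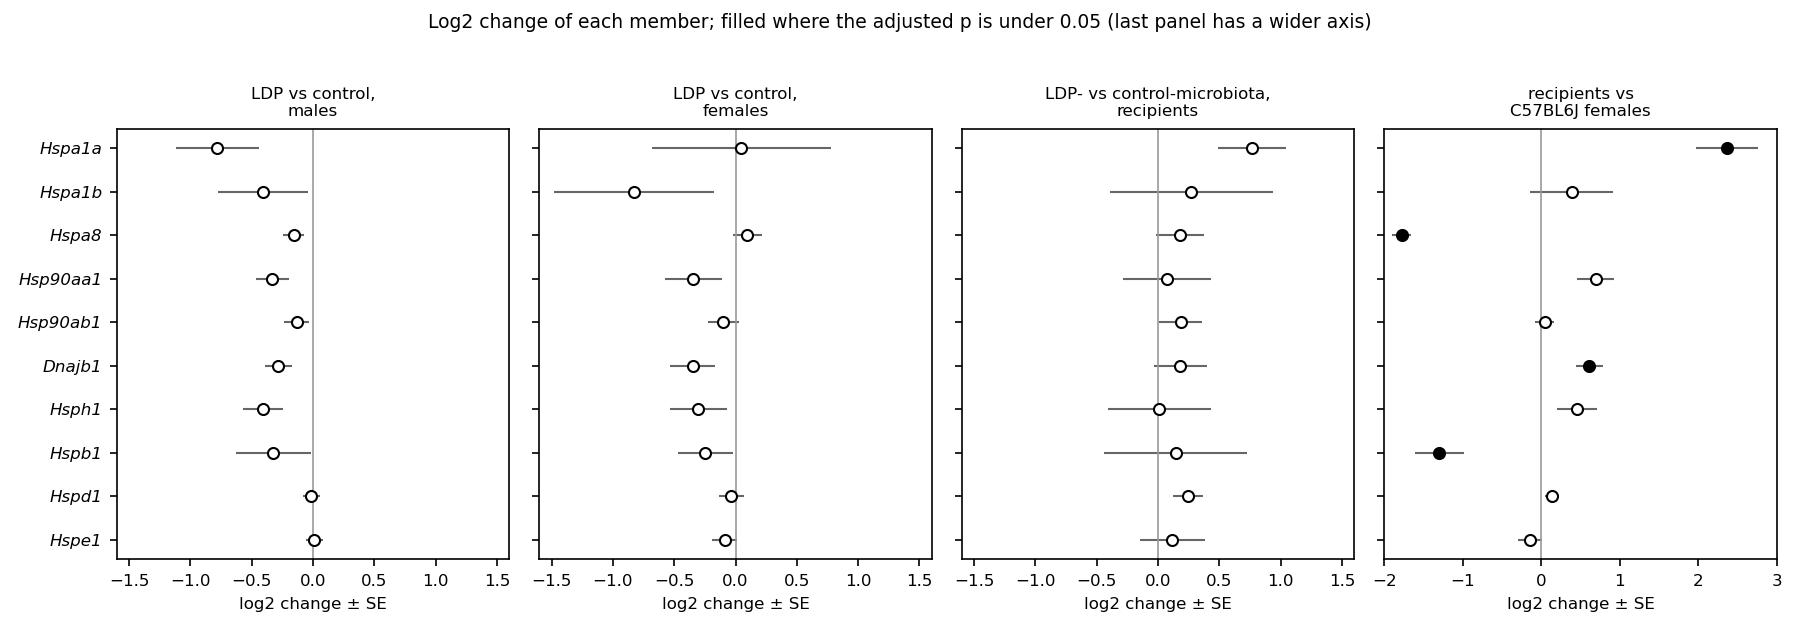
Log2 change (points) ± SE (bars) of each member in the 3 LDP comparisons and between recipients and C57BL6J females, filled where the adjusted p was under 0.05. No point is filled in the LDP panels; Hspa1a and Dnajb1 are filled on the right and Hspa8 and Hspb1 on the left in the last panel, which has a wider axis.

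Recipients differed from C57BL6J females in 4 of the 10 members, beside 26.4% of all 13295 genes tested (3512 called). Of the members 2 were called higher and 2 lower, and of all genes 12.6% and 13.9%. The model held LDP or control status as a term, with 6 mice against 6. Strain, germ-free birth, the transfer and the experiment differ together between these mice and cannot be told apart.

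Hspa8, the constitutive HSC70, fell in recipients. Its lowest, median and highest values were 66.8, 96.8 and 115.2 CPM in recipients, against 293.1, 325.9 and 361.5 CPM in C57BL6J females. The groups did not overlap, as held for 6.63% of all genes in that direction, with a mean of 95.5 ± 18.5 CPM in recipients and 327 ± 25.4 in C57BL6J females (SD, n = 6 each). The log2 change of -1.78 ± 0.12, 3.43-fold lower, had an adjusted p of 1.14e-07 in edgeR. It was also called within the LDP groups and within the control groups alone. Whether reads of the 39.4% of Hspa8 words with copies elsewhere were counted alike in both strains was not tested.

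Hspa1a rose in recipients. It had 2.29, 3.95 and 6.405 CPM (lowest, median, highest) in recipients and 0.184, 0.555 and 1.45 CPM in C57BL6J females, with no overlap (6.34% of all genes in that direction). The log2 change was 2.37 ± 0.39 (5.16-fold; adjusted p = 7.6e-04, edgeR). Its near twin was not called. Hspa1b had 6.74, 17.3 and 33.3 CPM in recipients and 6.22, 11.2 and 33.4 CPM in C57BL6J females, a log2 change of 0.39 ± 0.53 with an adjusted p of 0.630 in edgeR. Hspa1a therefore made up 26.3%, 21.7% and 15.02% of the HSP70 pair in LDP recipients and 23.98%, 25.4% and 10.3% in control recipients. In LDP females the shares were 8.48%, 5.94% and 4.19%, and in control females 4.17%, 4.00% and 2.88%. Every recipient had a larger Hspa1a share than every C57BL6J female. Summed over both genes, the log2 change was 0.59 and was not called (adjusted p = 0.427, edgeR). The call thus held for the counts given to Hspa1a and not for the sum, most of which came from Hspa1b. Whether the division of reads between these genes had a part in it was not tested.

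Dnajb1, the HSP40 partner, rose to 51.8 ± 11.48 CPM in recipients, against 34.2 ± 8.17 in C57BL6J females (SD, n = 6 each; log2 change 0.61 ± 0.17, adjusted p = 0.0198, edgeR). The groups overlapped, since control female 29 (49.2 CPM) exceeded 3 recipients. Without LDP female 52 the adjusted p was 0.0505. Hspb1, the small chaperone, fell to 1.08 ± 0.650 CPM in recipients, against 2.72 ± 0.580 in C57BL6J females (log2 change -1.30 ± 0.31, adjusted p = 0.00790, edgeR). The ranges met only through control recipient 7, at 2.04 CPM. Among control groups alone, with 3 mice against 3, only Hspa8 of the members was called.

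Hsp90aa1, at 81.0 ± 28.5 CPM in recipients and 50.5 ± 14.7 in C57BL6J females, narrowly missed the threshold (log2 change 0.69 ± 0.24, adjusted p = 0.0512, edgeR), and DESeq2 called it. Hsph1 had 130 ± 52.1 CPM in recipients and 95.6 ± 25.8 in C57BL6J females (0.45 ± 0.26). Hsp90ab1 (930.5 ± 165.0 and 903 ± 74.3 CPM), Hspd1 (269 ± 34.1 and 245 ± 9.28) and Hspe1 (38.9 ± 10.4 and 43.0 ± 3.48) differed by log2 changes of 0.04, 0.13 and -0.15. Markers of other cells differed between these mice too. Of 9 Kupffer cell markers, 5 were called lower in recipients, whose summed level was 534 to 769 CPM, against 641 to 917 CPM in C57BL6J females. Called lower too were 4 of 7 lymphocyte, 2 of 6 mesothelial, 2 of 7 stellate and 2 of 7 sinusoidal endothelial markers, 1 endothelial and 1 of 2 erythroid markers were called higher, and 0 of 10 hepatocyte markers were called. Their part in the chaperone values was not tested.

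The 10 genes also varied together between mice of the same group, except Hspd1 and some pairs with Hspe1 in males. Each mouse was expressed as its log2 CPM minus the mean of its own group, which removes differences of mean level between groups and tables. Differences in spread remain, so groups of wide spread weigh more in correlations over all mice. Over the 18 mice, all 45 pairs of members had a positive Pearson correlation of these deviations, with a median of 0.80 and a range of 0.41 to 0.97. Of all 53929305 pairs among the 10386 genes with a mean of at least 1 CPM in each table, 49.9% were positive. A correlation above 0.5 was found in 93.3% of member pairs and 8.62% of all gene pairs. Correlations are given as descriptions without p-values, since members were chosen with earlier results of these data known and mice of a group share its mean.

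The tightest pair was Hspa1b and Dnajb1, with a Pearson r of 0.975 and a Spearman rho of 0.961 over 18 mice. Hsp90aa1 and Hsph1 had r = 0.962 and rho = 0.903. These 4 genes lie on different chromosomes, and Dnajb1 and Hsph1 share almost no sequence words with other genes. Hspa1a and Hspa1b, in contrast, had r = 0.837 although they share most of their sequence. The mitochondrial partners Hspd1 and Hspe1, which share a promoter region, had r = 0.787. In the 6 males alone their r was 0.129, beside 0.813 in the 12 females. With every member Hspd1 had a correlation near 0 in males: its 9 pairs ranged from -0.148 to 0.129 there, with 6 above 0, against 0.459 to 0.889 in the 12 females. The 36 pairs without Hspd1 were all positive in males, with a median of 0.871. Some with Hspe1 were weak there, at 0.051 with Hspb1 and 0.249 with Hsp90ab1.

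Control recipient 7 deviated most, on average 0.68 log2 units above its group mean over the 10 members, followed by control female 29 at 0.46. Control female 32 was lowest, at -0.43. Without mice 7 and 29, the median over member pairs was 0.73, all 45 were still positive, and the Hspa1b and Dnajb1 correlation was 0.952. The members' mean deviation had a correlation of 0.09 with that of the library total, 0.44 with that of 10 hepatocyte markers, 0.43 with that of 8 Kupffer cell markers and 0.14 with that of 3 erythroid markers. Their part in the shared variation was not tested. Time of day, feeding state and the handling of each mouse are not given.

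**Figure D4:**
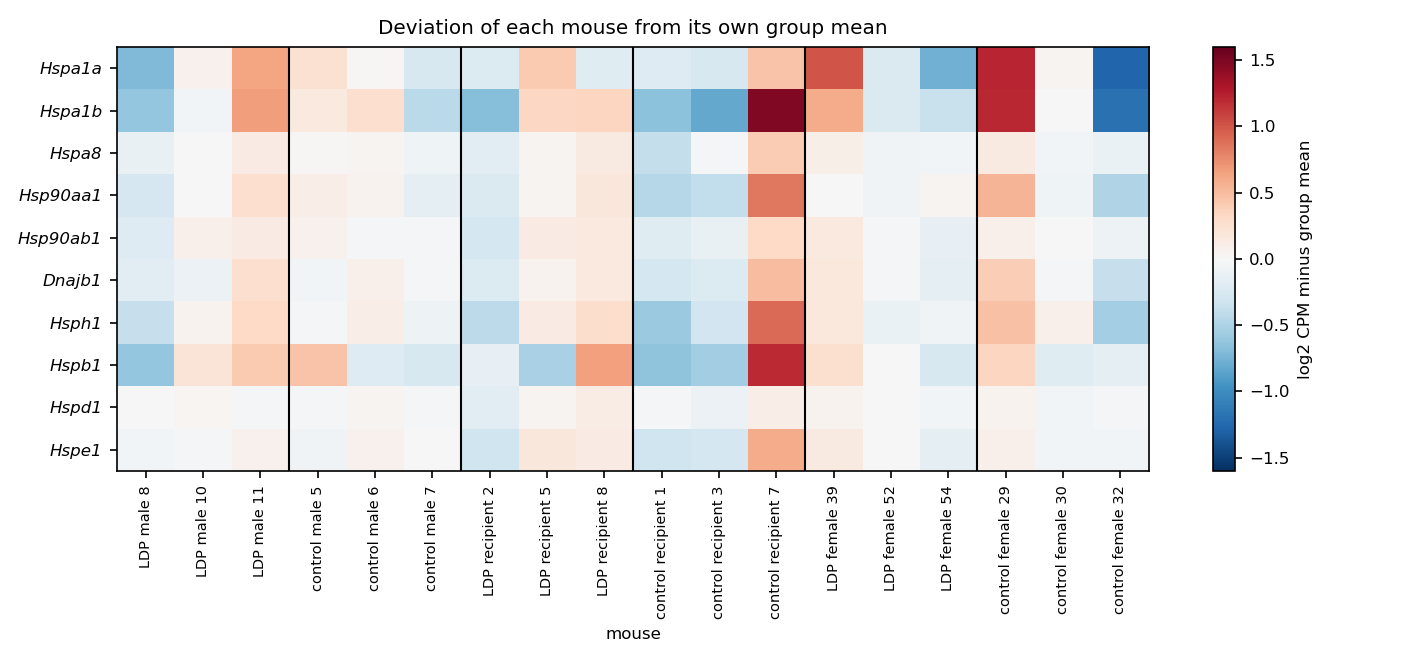
Deviation of each mouse from its own group mean (log2 CPM, red above and blue below), with members as rows and the 18 mice as columns in their 6 groups. Columns are mostly of 1 colour, as for control recipient 7 (on average 0.68) and control female 32 (-0.43), and the row of Hspd1 is pale.

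The size of this variation differed by member. Within groups the SD of Hspb1 was 0.58 log2 units, of Hspa1b 0.84, of Hsph1 0.44 and of Hsp90aa1 0.39. These exceeded 98.0%, 99.4%, 94.7% and 92.6% of genes compared, whose median SD was 0.17. The ranking did not match genes by level, and counting error adds to the SD of low genes such as Hspb1. Hspa1a had an SD of 0.73 at a level too low for that ranking. Dnajb1 (0.27), Hspe1 (0.25), Hspa8 (0.19) and Hsp90ab1 (0.18) were nearer the median. Hspd1, at 0.08, was among the least variable genes, at the 5.36th percentile. The LDP changes of Hspa1b, -0.41 in males, -0.83 in females and 0.27 in recipients, were thus no larger than its SD between mice of a group.

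Genes outside the list that varied most like the members' mean, over 18 mice, were P4ha1 (r = 0.945), Ran (0.939), Creb3l3 (0.933), Pxmp4 (0.927), Cacybp (0.924), Ptges3 (0.922), Dnajb4 (0.918) and Chordc1 (0.917). Ptges3 (p23) and Chordc1 are HSP90 co-chaperones, Cacybp carries an HSP90-binding region, and Dnajb4 is an HSP40. P4ha1 is a subunit of collagen prolyl hydroxylase, Ran a nuclear transport GTPase and Creb3l3 a liver transcription factor of lipid metabolism. Among the most negative were Cenpc1 (r = -0.962), Tifa (-0.914) and Tmem18 (-0.906). In the 6 males alone Creb3l3 had r = 0.549, beside 0.981 in the 12 females. Of 10377 genes ranked, Dnaja1 was at place 14 (0.885), Ahsa1, which stimulates the HSP90 ATPase, at place 17 (0.876), and Bag3, an HSP70 exchange factor, at place 32 (0.850). Other chaperone and co-chaperone genes lay far lower, among them Dnaja4 (0.229), Stub1 (0.217), Hspa2 (0.135), Bag2 (-0.036) and Bag6 (-0.073). Hsf1 itself, whose protein is regulated mainly after translation, had r = 0.408 and ranged from 14.9 to 20.0 CPM over all mice.

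In the rest of the chaperone network, no gene of 8 related lists was called in any of the 3 LDP comparisons by edgeR. Of all genes tested, 49.3% were lower in LDP males, 49.1% lower in LDP females and 48.4% higher in LDP recipients. Some genes of these lists varied with the members between mice, so counts over a list are not counts of independent results. Among 16 genes of HSF1 and inducible cofactors, 14 were lower in LDP males with a median log2 change of -0.13, 10 in LDP females (-0.08) and 9 in LDP recipients (-0.02), each set against its controls. The gene of lowest p was Hspa4 in males, at 136.8 ± 4.93 CPM in LDP males and 152.1 ± 4.34 in control males (unadjusted p = 0.0433, adjusted p = 0.920, edgeR), and Hspa4l in females (log2 change -0.29). Of 21 HSP70 and HSP90 co-chaperones, 18 were lower in LDP males (median -0.07), 17 in LDP females (-0.08) and 5 in LDP recipients (0.09). Stip1, which links HSP70 to HSP90, had a log2 change of -0.24 in males, and Ppid 0.27 in recipients. All 8 subunits of the cytosolic chaperonin were lower in LDP males (median -0.05) and higher in LDP recipients (0.13). Cct6a had the lowest p of them in both, at 83.8 ± 0.713 CPM in LDP males and 91.3 ± 4.95 in control males (SD, n = 3 each, adjusted p = 0.920 in edgeR). In LDP recipients Cct6a had 55.9 ± 3.39 CPM, against 48.2 ± 2.23 in control recipients (SD, n = 3 each, adjusted p = 0.846 in edgeR). Its groups did not overlap in either, as held for 4.85% of all genes (lower, males) and 6.74% (higher, recipients). All 15 chaperones of the endoplasmic reticulum were lower in LDP males (median -0.17) and 14 in LDP females (-0.12), with 8 higher in LDP recipients (median 0.00). Hspa5, the HSP70 of that compartment, had a log2 change of -0.28 in males. Among 12 mitochondrial chaperones and proteases, 6 were higher in LDP males (median -0.003), 4 in LDP females (-0.04) and 10 in LDP recipients (0.17). The protease unfoldase Clpx had the lowest p in recipients, at 274 ± 17.7 CPM in LDP recipients, against 183 ± 41.2 in control recipients (unadjusted p = 0.00747, adjusted p = 0.846, edgeR).

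Lists that track temperature, handling and time of day were read beside the chaperones. Cirbp and Rbm3, RNA-binding proteins induced by mild cold, had log2 changes of 0.08 and -0.06 in males, -0.14 and 0.18 in females, and -0.20 and -0.01 in recipients. Of the immediate early genes, which respond to acute stimuli, Atf3 had 2.67 ± 1.13 CPM in LDP females and 0.798 ± 0.186 in control females (log2 change 1.75, unadjusted p = 0.00129, adjusted p = 0.924, edgeR). In males Atf3 had a log2 change of -0.86. The 14 circadian clock genes had a median log2 change of 0.00 in LDP males, 0.11 in LDP females and, over 13 tested, -0.17 in LDP recipients.

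Between recipients and C57BL6J females, 22 of 99 genes tested in the 8 lists were called (22.2%), beside 26.4% of all genes. Of the list genes 12.1% were higher and 10.1% lower, beside 12.6% and 13.9% of all genes. All 12 mitochondrial chaperones and proteases had higher means in recipients and 5 were called, led by Clpx at 228.5 ± 57.4 CPM in recipients and 83.9 ± 9.75 in C57BL6J females (SD, n = 6 each; log2 change 1.42, adjusted p = 4.84e-06, edgeR). Dnaja3 and Grpel1, partners of mitochondrial HSP70, rose by 0.39 and 0.40 on the log2 scale. Of the co-chaperones, Unc45a (0.57) and Stip1 (0.47) rose. Hspa4l, of the HSP110 family, fell by 0.75, and of the chaperonin subunits Cct7 rose (0.24) while Cct6a fell by 0.32. Pdia6 was the only 1 of 15 endoplasmic reticulum chaperones called (0.56). Of 11 immediate early genes tested, 1 was called higher (Ier2) and 4 lower, led by Egr1, at 5.17 ± 1.42 CPM in recipients and 31.2 ± 19.8 in C57BL6J females. Among the clock genes Tef, Per2 and Dbp fell by 0.64, 0.78 and 0.82, and 4 of 14 were called lower and 2 higher. The part of these differences in the chaperone values was not tested.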

How the data were processed

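The authors deposited raw counts of reads per gene, with a column for each mouse: the 6 males in 1 table, the 12 females in the other. HTSeq 0.5.3p9 and featureCounts 1.4.3-p1 (counting tools), STAR 2.3.0e, DESeq and mm10 are listed in the submitters' processing notes, without roles. Strand use, read length and the handling of reads that match several genes are not given in the sources used here. Libraries were TruSeq v2 from RNeasy Mini Kit RNA, per the labels' protocols.

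Male gene IDs were matched to symbols in GENCODE M21 (37607 of 38924, 96.6%). In R 4.3.3, edgeR 4.0.16 filtered genes (filterByExpr at 10 counts and a total of 15), computed TMM factors and ran its quasi-likelihood F test with robust fitting. Benjamini-Hochberg adjusted p-values cover all genes tested, with a threshold of 0.05. SEs were derived from the F statistic and are approximate. Each LDP comparison used its own 6 libraries; recipients against C57BL6J females used 12, with LDP status as a term. Deviations used log2 CPM with a prior count of 2. Shared 50-base words were counted over GENCODE M21 transcripts, without regard to strand of the library. Alternatives were DESeq2 1.42.0, other scaling factors and filters, a fit that is not robust, a shared spread, Hspa1a and Hspa1b summed, and leaving out each mouse. Scripts were tested on simulated data.

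All 10 members are named in each comparison; of each list, called genes (up to 3 by p) or else the 2 of lowest p were considered for naming. Members and lists were chosen with earlier results of these data known, and genes singled out beyond that rule were chosen after their values were seen.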

Additional observations from a re-analysis of the deposited data

How the results depend on the processing

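No member was called in any LDP comparison or difference of LDP effects under any alternative run, and 4 members were called between recipients and C57BL6J females under each alternative not named here. DESeq2 and the fit that is not robust called 5, adding Hsp90aa1, and summing Hspa1a with Hspa1b left 3. The number of genes called over the whole table was less steady. DESeq2 called 42 genes in males, 14 in females, 19 in recipients and 14 for the difference between females and recipients. With no filter on low counts edgeR called 2, 1 and 2 genes in males, females and recipients, and with all 12 female libraries sharing the spread 3 in recipients. Leaving out 1 mouse at a time gave 0 to 66 genes called in males, 0 to 1 in females, 0 to 4 in recipients, 0 to 3 for the difference between females and recipients and 0 to 1 for that between males and females. The 66 came without LDP male 11, a fit in which Dnajb1 narrowly missed the threshold (log2 change -0.43, adjusted p = 0.0513, edgeR). The cause was not tested.

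Summing Hspa1a and Hspa1b turned Hspa1a in females to -0.79 (log2), and DESeq2 gave it -0.017. Leaving out 1 mouse at a time gave log2 changes that crossed 0 for some members. In males Hspe1 ranged from -0.028 to 0.045 and Hspd1 from -0.036 to 0.0026, and in females Hspa1a from -0.76 to 0.94. In recipients Hspa1b ranged from -0.093 to 1.44, Hspa8 from -0.0012 to 0.42, Hsp90aa1 from -0.16 to 0.63, Hsph1 from -0.26 to 0.62, Hspb1 from -0.31 to 1.13 and Hspe1 from -0.054 to 0.49, the upper ends without control recipient 7. For the difference between females and recipients Hspa1a ranged from -1.54 to 0.16, Hspa8 from -0.33 to 0.071 and Hspb1 from -1.39 to 0.056, and the members' median from -0.89 to -0.19, lowest without control recipient 7. For that between males and females Hspa1b ranged from -0.38 to 0.82, Hsp90aa1 from -0.31 to 0.21, Hsp90ab1 from -0.10 to 0.066, Dnajb1 from -0.15 to 0.22, Hsph1 from -0.36 to 0.12, Hspb1 from -0.29 to 0.20 and Hspd1 from -0.011 to 0.044.

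Between recipients and C57BL6J females, leaving out 1 mouse gave 3 to 5 members called, and Hsp90ab1 ranged from -0.018 to 0.10. The control groups alone, an alternative chosen after seeing the data, gave 1 member and 1086 genes called, with Hspb1 at -1.51, Hspa1a at 1.96 and Dnajb1 at 0.34 no longer past the threshold and Hspa1b (-0.17), Hsp90ab1 (-0.11) and Hspd1 (-0.018) of the other sign. The LDP groups alone, likewise added, gave 6 members, adding Hsp90aa1 (0.89) and Hsph1 (0.60), and 1940 genes called. These hold 3 mice against 3.

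No paired analysis was possible because the groups compared share no replicate numbers. Depth limits Hspa1a in C57BL6J females and Hspb1 in recipients most.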
